A study of Mus musculus with 23 samples.

Results

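The genes described here are 46 mouse genes that copy DNA or bring cells into S phase. They were taken as a list of names, chosen with earlier results of these data known. They hold the MCM helicase, the factors that license and fire origins, the replicative polymerases and primase, the sliding clamp with its loader and the enzymes that finish Okazaki fragments, the enzymes that supply deoxynucleotides, the drivers of S phase entry, and factors that copy chromatin. Of the 46 genes, 44 had a tested probe among 13743 tested genes, and Rpa1 and Rrm2 had no probe with their name. The 44 genes were well above background in all 22 samples, except that the Cdt1 spot of wild-type spleen 3 was marked by the scanner software and left out, so the Cdt1 fit dropped that sample.

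RNA was hybridised to single-colour Agilent whole mouse genome arrays. All mice were Cd3e knockouts (CD3eKO), a gene of the complex that carries T cell receptor signals, on a C57BL/6 x 129 background, and no treatment or age is given in the labels. The groups were 9 B cell lymphoma lines from Atm knockout mice (ATMKO), 6 spleens of Atm knockout mice without tumours and 7 spleens of Atm wild-type mice (ATMWT). The lines had been set up from spleens that bore tumours and were kept in suspension culture, so they also differ from the spleens in being cultured. The knockout spleens were all female, 4 wild-type spleens were male and 3 female, and the sex of the lines was not determined.

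Before S phase, the origin recognition complex, Cdc6 and Cdt1 load the MCM helicase onto DNA, and cyclin-dependent kinases then switch it on with Cdc45 and the GINS complex. Many of these genes are transcribed together under E2F factors once the retinoblastoma protein is inactivated, which cyclin E helps to bring about. In the spleen, dividing cells are mainly activated B cells and, in mice, the red cell and myeloid precursors of the red pulp.

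Levels are log2 signals relative to the 75th percentile of the array, so 0 is the 75th percentile and each unit is a doubling, and levels of different genes are not compared. The share of spots that stood well above background was 54.9% to 62.3% on arrays of lines, 62.6% to 67.6% on those of knockout spleens and 61.7% to 66.9% on the rest. Atm itself was at -0.66 to 0 in the wild-type spleens, at -2.69 to -2.07 in the knockout spleens and at -4.38 to -2.77 in the lines, so the samples followed their labelled genotype. The 10 B cell markers were well above background in all 9 lines, with a mean level of 3.87 to 4.59 against 3.89 to 4.36 in the knockout and 3.94 to 4.48 in the wild-type spleens. The macrophage list had a mean level of -6.49 to -4.64 in the lines and 1.99 to 2.87 in the spleens. Of its 7 measured members, 1 was well above background in no line and 3 were so in all lines, as were 4 of 13 measured erythroid markers. The macrophage marker Adgre1 ran from -3.48 to 4.10 in the lines (median -2.01), so that its highest line was above every spleen. The neutrophil, NK cell, erythroid and megakaryocyte lists were also lower in the lines than in every spleen by their mean level. In bulk RNA of this kind, fewer cells of a type and less RNA per cell cannot be told apart. The labels do not say whether the lines share a mouse, and p-values measure only the spread between these samples.

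The first question was how far the replication genes differed between the lymphoma lines and tumour-free spleens of the same genotype. Almost the whole set was higher in the lines. Of the 44 genes, 43 were higher and 0 lower than in the knockout spleens (limma, Benjamini-Hochberg adjusted p under 0.05), beside 41.5% and 28.9% of all tested genes. At an unadjusted p under 0.05 also 0 were lower, beside 29.7% of all genes. The median log2 difference was 1.51 over the 44 genes and 0.18 over all genes. The difference was at least 2-fold in 36 of the 44 genes, against 17.8% of all genes. In 31 of 44 genes every line lay above every knockout spleen, which held for 24.1% of all genes.

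Against the wild-type spleens, 43 of the 44 genes were again higher and 0 were lower, beside 40.2% and 31% of all genes (0 lower at an unadjusted p under 0.05, beside 31.8%). The median difference was 2.05, with 0.13 over all genes, and 40 genes were higher by at least 2-fold (19.1% of all genes). The lines and the wild-type spleens did not overlap in 40 of 44 genes (23.9% of all genes). The lines are common to both comparisons, so the second is not independent of the first.

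**Figure D1:**
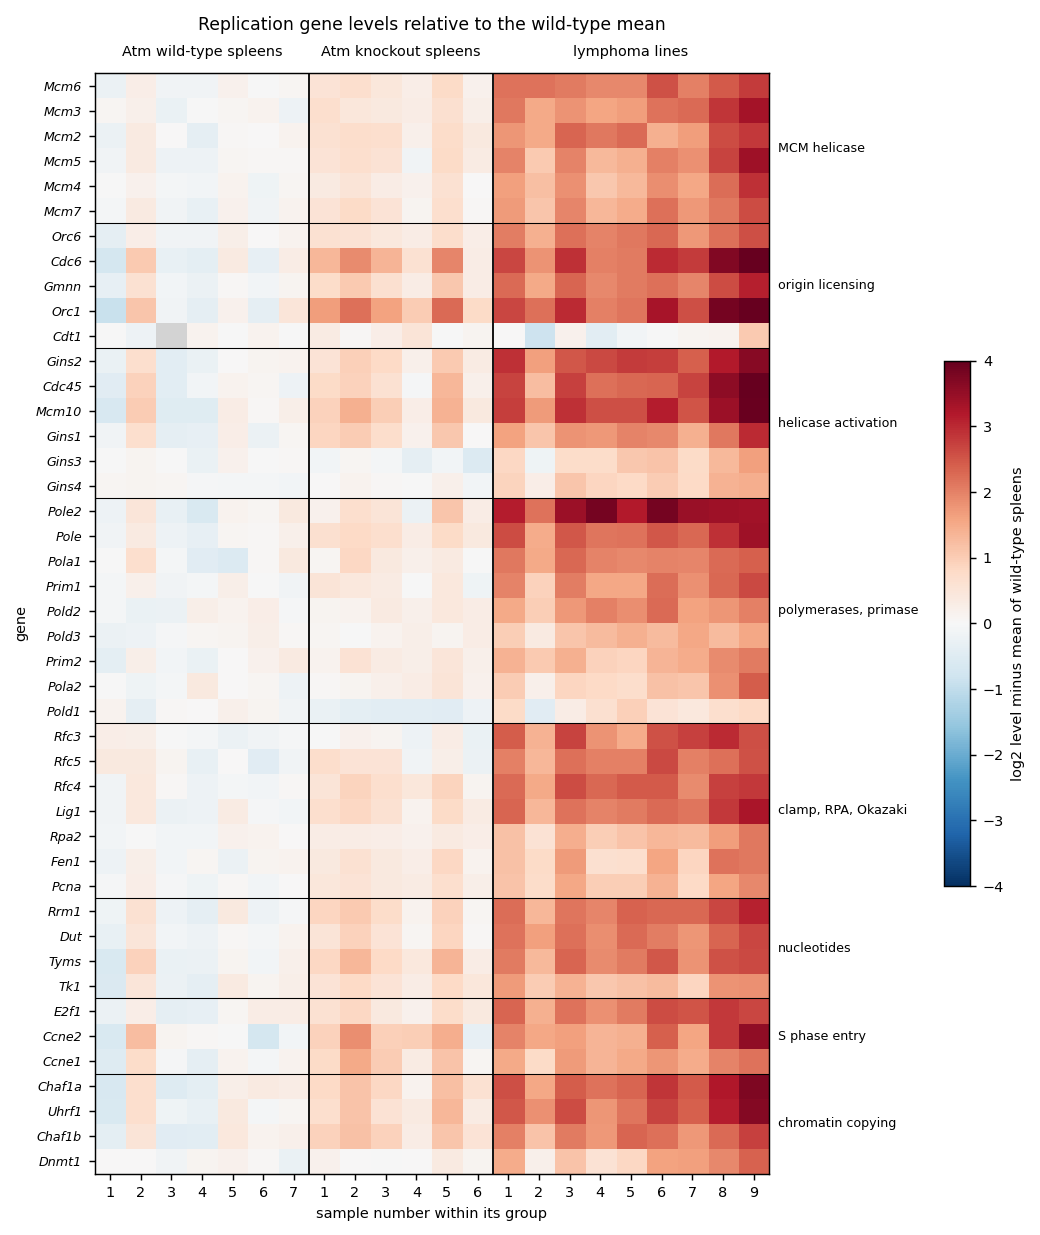
Log2 level of each of the 44 measured replication genes (rows, grouped by role) in each sample (columns), minus the gene's mean over the 7 wild-type spleens. Red is higher and blue lower, the colour scale ends at 4 units in either direction, and the grey cell is the dropped Cdt1 spot. The 9 lines are red in nearly every row and palest in line 2, and Cdt1 is the row with little colour.

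The direction of the set did not rest on how arrays were scaled. Between 41 and 43 genes were higher than in the knockout spleens, and 42 to 44 than in the wild-type spleens, when arrays were centred on their medians, quantile normalised or corrected with normexp. Centring on medians raised the median difference to 2.10 and 2.63, but it also raised the median of all genes to 0.77 and 0.71. The split of all called genes against the knockout spleens then went from 5704 higher and 3974 lower to 8436 higher and 2604 lower, and against the wild-type spleens from 5531 and 4256 to 8276 and 2740. The arrays lay on 6 slides, of which 5 held lines and spleens and 1 held only lines 7, 8 and 9. Within single slides the median difference was 1.25 to 1.89 against the knockout spleens and 1.88 to 2.39 against the wild-type spleens on 4 slides. It was 0.49 and 0.75 on the slide that held line 2 as its only line. The spleens of that slide were wild-type spleen 2, the highest wild-type spleen in 31 genes, and knockout spleens 2 and 3. Knockout spleen 2 was the highest knockout spleen in 14 genes. The parts of line 2, these spleens and the slide cannot be told apart there.

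The MCM helicase, the ring of Mcm2, Mcm3, Mcm4, Mcm5, Mcm6 and Mcm7 that unwinds DNA at the fork, was higher in the lines in every subunit. All 6 genes were higher in the lines than in each group of spleens, with differences of 1.35 to 1.75 from the knockout and 1.73 to 2.23 from the wild-type spleens. The lines overlapped with no spleen for any of the 6. Mcm6 ranged from 7.12 to 8.01 in the lines (median 7.39), from 5.38 to 5.98 in the knockout spleens (median 5.71) and from 4.98 to 5.47 in the wild-type spleens (median 5.18). Its difference from the knockout spleens was 1.75 ± 0.14 (SE; adjusted p = 2.13e-10), or 3.36-fold. Mcm7, the member with the smallest difference, spanned 4.97 to 6.47 in the lines (median 5.60), 3.92 to 4.64 in the knockout (median 4.41) and 3.56 to 4.24 in the wild-type spleens (median 3.79). Its lowest line was still above its highest spleen, and the difference was 1.35 ± 0.19 (adjusted p = 1.51e-06).

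Since many replication genes are known E2F targets and were high together, the bases around their starts were read from RefSeq promoter windows (250 bases before to 50 after each start, GRCm38.p6). A window was found for 38 of the 46 genes. The forms TTTCCCGC and TTTGGCGC of the E2F site were each searched on both strands, where their complements read GCGGGAAA and GCGCCAAA. A match lay in a window of 13 of the 38 genes (34.2%), against 486 of 27025 genes with a window (1.8%) and 1.56% of all 32851 windows. By role, the match was found in 4 of 5 MCM genes, in 4 of 7 polymerase and primase genes and in 2 of 4 licensing genes. It was found in 1 of 8 clamp, loader and Okazaki genes, 1 of 4 chromatin copying genes and 1 of 3 helicase activation genes. Of 5 nucleotide supply genes and 2 genes of S phase entry, 0 had a match. The match lay before the start in 6 of the 13 genes. In Mcm3, Cdt1, Dnmt1, Pold1, Pold3, Pole2 and Rfc3 it lay at or after the start, and these are not shown. The upstream stretches of the 6 genes are shown with 20 bases on either side of the match, which is in capitals. Of the 6, Mcm5, Mcm6 and Mcm7 are MCM genes, and Cdc6, Gins3 and Pola1 belong to 3 other roles.
Mcm5, chr8:75109340-75109387, plus strand: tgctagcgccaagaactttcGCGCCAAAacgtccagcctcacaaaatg
Mcm6, chr1:128359725-128359835, minus strand: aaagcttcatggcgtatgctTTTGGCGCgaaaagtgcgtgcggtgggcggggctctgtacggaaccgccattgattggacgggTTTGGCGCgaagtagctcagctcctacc
Mcm7, chr5:138172021-138172068, minus strand: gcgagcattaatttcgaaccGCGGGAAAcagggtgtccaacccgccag
Cdc6, chr11:98907993-98908040, plus strand: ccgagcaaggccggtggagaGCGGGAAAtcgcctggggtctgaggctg
Gins3, chr8:95633498-95633545, plus strand: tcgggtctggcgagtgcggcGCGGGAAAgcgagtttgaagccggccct
Pola1, chrX:93632266-93632313, minus strand: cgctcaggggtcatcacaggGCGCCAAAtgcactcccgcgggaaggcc

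Each is written 5′ to 3′ on the strand of its gene. The Mcm6 window holds the same form in 2 places, which span positions -110 to -40 from the start. Other forms of the E2F site were not searched, so a gene without a match may hold another form. A match describes the searched letters only. The genes with and without it had similar differences, which were not tested against each other. The 13 measured genes with a match had a median difference from the knockout spleens of 1.50, from -0.20 for Cdt1 to 2.88 for Pole2, and the 23 measured genes without one had a median of 1.59, from 0.78 to 2.02.

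Among the licensing genes, which mark origins and load the helicase, 4 of 5 were higher in the lines in each comparison. These were Orc1 and Orc6, subunits of the origin recognition complex, Cdc6, the loading ATPase, and Gmnn, which encodes geminin, the inhibitor of Cdt1. Orc6 was at 4.18 to 5.34 in the lines (median 4.88), 3.02 to 3.48 in the knockout spleens (median 3.26) and 2.41 to 3.03 in the wild-type spleens (median 2.79). No line reached down to a spleen, and the difference from the knockout spleens was 1.59 ± 0.14 (adjusted p = 2.49e-09). Geminin differed by 1.54 ± 0.20 from the knockout and by 2.22 ± 0.19 from the wild-type spleens, with no overlap.

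Cdc6 and Orc1 overlapped between the lines and the knockout spleens but not between the lines and the wild-type spleens. Cdc6 was at 0.27 to 2.70 in the lines (median 1.26), -1.24 to 0.41 in the knockout spleens (median -0.19) and -2.24 to -0.49 in the wild-type spleens (median -1.82). Its difference was 1.56 ± 0.36 from the knockout spleens (adjusted p = 0.000513) and 2.80 ± 0.34 from the wild-type spleens. A second Cdc6 probe gave 0.03 from the knockout spleens (adjusted p = 0.951) and 1.42 from the wild-type spleens, and the mean of the probes was 0.80 and did not pass the test against the knockout spleens. The Cdc6 difference between lines and knockout spleens is therefore uncertain. Orc1 ran from -1.75 to 0.55 in the lines (median -1.11), -3.01 to -1.52 in the knockout spleens (median -2.13) and -4.68 to -2.66 in the wild-type spleens (median -3.93). This gave a difference of 1.31 ± 0.36 (adjusted p = 0.0025) from the knockout and 2.90 ± 0.34 from the wild-type spleens.

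Cdt1, which brings the helicase to origins and which geminin holds in check, was the 1 measured gene that did not pass either test. It was at 4.08 to 5.97 in the lines (median 4.92), 4.90 to 5.44 in the knockout spleens (median 5.11) and 4.70 to 5.05 in 6 wild-type spleens (median 4.89). The spleens lay inside the range of the lines. The difference was -0.20 ± 0.19 from the knockout spleens (adjusted p = 0.355) and 0.01 ± 0.19 from the wild-type spleens (adjusted p = 0.949). Its sign depended on the scaling: against the knockout spleens it was -0.69 after quantile normalisation (adjusted p = 0.00165) and 0.39 after centring on medians (adjusted p = 0.105). Against the wild-type spleens these values were -0.48 and 0.59, and both passed the test. Line 9 held the highest level, and without it the difference from the knockout spleens was -0.33 (adjusted p = 0.0439).

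**Figure D2:**
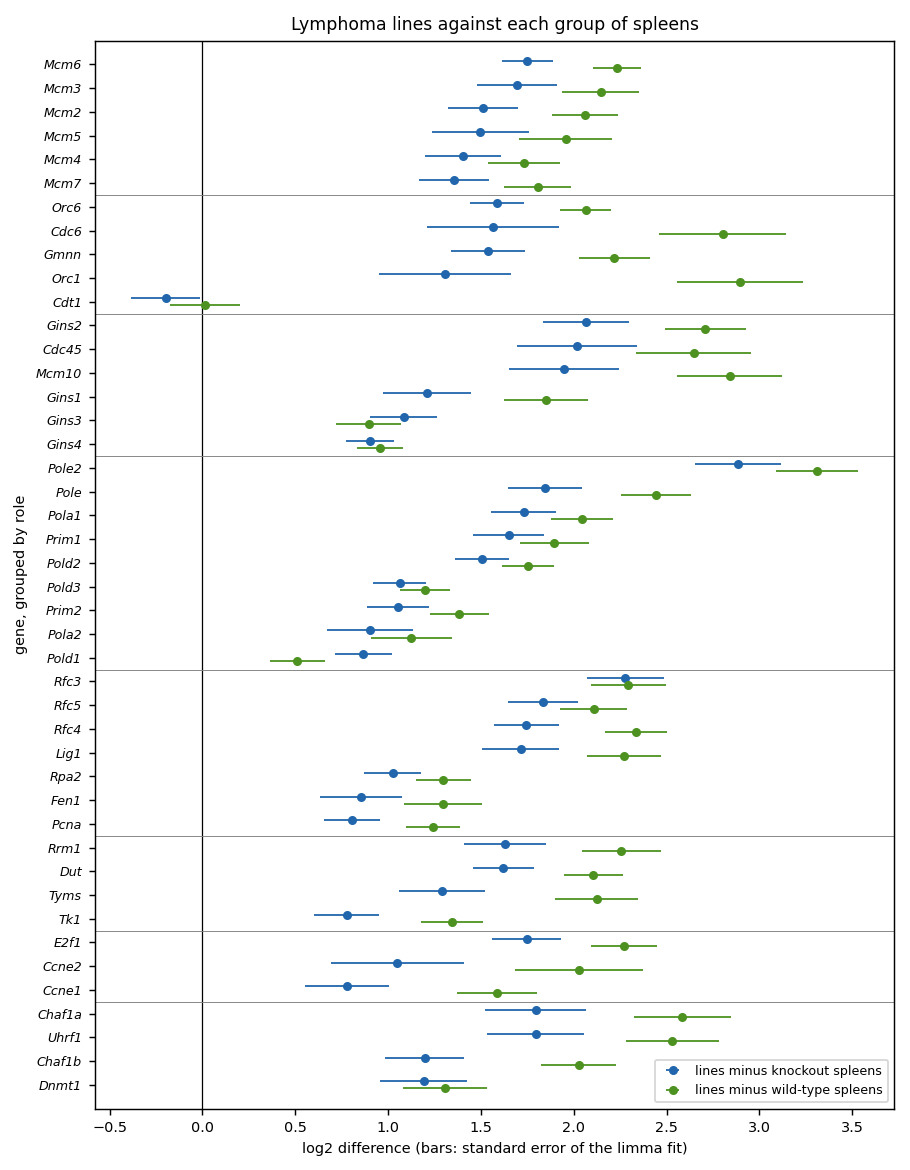
Log2 difference of each measured replication gene between the 9 lymphoma lines and the 6 knockout spleens (blue) or the 7 wild-type spleens (green), by role, with the standard error of the limma fit as bars. Pole2 lies farthest to the right at 2.88 and 3.31, Cdt1 lies nearest to 0 at -0.20 and 0.01, and the green points are to the right of the blue ones for all genes but Gins3 and Pold1.

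The genes that turn the loaded helicase on were all 6 higher in the lines in each comparison. Gins2, a subunit of the GINS complex, was at 0.89 to 2.89 in the lines (median 2.02), -0.53 to 0.31 in the knockout spleens (median -0.08) and -1.15 to -0.05 in the wild-type spleens (median -0.73). All lines were above all spleens, by 2.07 ± 0.23 on average over the knockout spleens (adjusted p = 6.24e-08), which is 4.19-fold. Cdc45, the helicase partner, was at -1.07 to 1.74 in the lines (median 0.39), -2.36 to -0.99 in the knockout spleens (median -1.63) and -2.76 to -1.38 in the wild-type spleens (median -2.42). Its lowest line fell just below the highest knockout spleen, and the difference was 2.02 ± 0.32 (adjusted p = 1.02e-05). Mcm10, which binds the helicase at firing origins, differed by 1.95 ± 0.30 from the knockout and 2.84 ± 0.28 from the wild-type spleens.

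The other GINS subunits had smaller estimates than Gins2, with 1.21 for Gins1, 1.08 for Gins3 and 0.90 for Gins4 against the knockout spleens. Gins4 was at 1.41 to 2.57 in the lines (median 2.02), 1.04 to 1.34 in the knockout spleens (median 1.17) and 1.02 to 1.24 in the wild-type spleens (median 1.10). Its groups did not overlap although the difference was only 0.90 ± 0.13 (adjusted p = 2.33e-06). Gins3 overlapped with the knockout and with the wild-type spleens through line 2 alone, at -0.73 against 0.16 in the next lowest line. Differences between the subunits were not tested.

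All 9 polymerase and primase genes were higher in the lines. Pole2, the second subunit of the leading strand polymerase epsilon, had the largest difference of the whole set. It was at 0.47 to 2.13 in the lines (median 1.69), -1.93 to -0.60 in the knockout spleens (median -1.30) and -2.33 to -1.21 in the wild-type spleens (median -1.64). Every line exceeded every spleen, by 2.88 ± 0.23 on average over the knockout spleens (7.39-fold; adjusted p = 3.4e-10) and 3.31 ± 0.22 over the wild-type spleens (9.92-fold; adjusted p = 1.36e-11). Pole, its catalytic subunit, differed by 1.84 ± 0.20 and 2.44 ± 0.19. Pola1, the catalytic subunit of polymerase alpha, which starts new strands with primase, was at 1.56 to 2.44 in the lines (median 2.03), 0.04 to 0.89 in the knockout spleens (median 0.33) and -0.50 to 0.71 in the wild-type spleens (median 0.03). It did not overlap with either group, and its SD of 0.26 between lines was the smallest of the set. Its difference from the knockout spleens was 1.73 ± 0.17 (adjusted p = 1.37e-08).

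The genes of the lagging strand polymerase delta lay near or below the median of the set. Pold2, its second subunit, was higher by 1.51 ± 0.15 than in the knockout spleens. Pold1, the catalytic subunit, was at 4.29 to 5.70 in the lines (median 5.36), 4.28 to 4.53 in the knockout spleens (median 4.33) and 4.37 to 4.94 in the wild-type spleens (median 4.78). Line 2, at 4.29, was the only line within the range of the spleens. The difference was 0.87 ± 0.15 from the knockout spleens (adjusted p = 3.55e-05) and 0.51 ± 0.15 from the wild-type spleens (adjusted p = 0.0038), but the latter was 0.0044 and did not pass the test after quantile normalisation. Pold3, the accessory subunit, was at 2.30 to 3.50 in the lines (median 3.21), 1.92 to 2.24 in the knockout spleens (median 2.07) and 1.71 to 2.17 in the wild-type spleens (median 2.00). This probe had no overlap and a difference of 1.06 ± 0.14 (adjusted p = 7.96e-07), and another Pold3 probe gave 0.98. A further Pold3 probe went the other way, at -0.11 from the knockout (adjusted p = 0.643) and -0.17 from the wild-type spleens, so Pold3 is uncertain. Of the 10 genes with several tested probes, Cdc6 and Pold3 were the ones whose probes gave different calls against the knockout spleens.

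The sliding clamp, its loader, replication protein A and the Okazaki fragment enzymes gave 7 of 7 measured genes higher in the lines. The loader subunits Rfc3, Rfc4 and Rfc5 differed most, by 2.28, 1.74 and 1.83 from the knockout spleens. Rfc3 was at 0.65 to 2.23 in the lines (median 1.79), -1.02 to -0.44 in the knockout spleens (median -0.70) and -0.97 to -0.47 in the wild-type spleens (median -0.80). The spleen groups nearly coincided and the lines stood apart, by 2.28 ± 0.21 (adjusted p = 3.32e-09) and 2.29 ± 0.20. Lig1, the ligase that joins Okazaki fragments, was higher by 1.71 ± 0.21 than in the knockout spleens, Rpa2, a subunit of the single-strand binding protein, by 1.03 ± 0.15, and Fen1, the flap nuclease, by 0.86 ± 0.22.

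Pcna, the sliding clamp itself, had the smallest difference of this role. It was at 5.71 to 6.90 in the lines (median 6.12), 5.20 to 5.63 in the knockout spleens (median 5.39) and 4.81 to 5.23 in the wild-type spleens (median 4.93). The lines lay above all spleens, with the gap to the knockout spleens narrow. The difference was 0.80 ± 0.15 from the knockout spleens (adjusted p = 6.25e-05) and 1.24 ± 0.14 from the wild-type spleens (adjusted p = 9.13e-08). After quantile normalisation the first was 0.30 and did not pass the test.

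All 4 measured genes of nucleotide supply were higher in the lines. Rrm1, the large subunit of ribonucleotide reductase, was at 3.53 to 5.29 in the lines (median 4.48), 2.27 to 3.25 in the knockout spleens (median 2.98) and 1.84 to 2.81 in the wild-type spleens (median 2.01). It did not overlap and differed by 1.63 ± 0.22 (adjusted p = 9.99e-07). Dut, the dUTPase that keeps uracil out of DNA, was at 5.14 to 6.16 in the lines (median 5.65), 3.53 to 4.41 in the knockout spleens (median 4.01) and 3.19 to 3.97 in the wild-type spleens (median 3.43). Its difference was almost the same, at 1.62 ± 0.17 (adjusted p = 1.71e-08), again without overlap. Tyms, thymidylate synthase, differed by 1.29 ± 0.23 and overlapped with the knockout spleens.

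Tk1, the thymidine kinase that recycles thymidine, was at 3.14 to 4.11 in the lines (median 3.54), 2.56 to 3.06 in the knockout spleens (median 2.83) and 1.71 to 2.76 in the wild-type spleens (median 2.38). The lowest line was just above the highest knockout spleen. The difference was 0.78 ± 0.18 from the knockout (adjusted p = 0.000466) and 1.35 ± 0.17 from the wild-type spleens.

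The drivers of S phase entry, E2f1 and the cyclins Ccne1 and Ccne2, were all 3 higher in the lines. E2f1, the transcription factor, was at 0.42 to 1.83 in the lines (median 1.32), -0.84 to -0.18 in the knockout spleens (median -0.50) and -1.37 to -0.71 in the wild-type spleens (median -0.92). It did not overlap, and it was higher by 1.75 ± 0.19 (adjusted p = 3.11e-08) and 2.27 ± 0.18. Cyclin E1 (Ccne1) was at 2.83 to 4.23 in the lines (median 3.58), 2.15 to 3.57 in the knockout spleens (median 2.94) and 1.55 to 2.79 in the wild-type spleens (median 2.02). It overlapped with the knockout spleens, and its difference from them was 0.78 ± 0.23 (adjusted p = 0.0041), or 0.43 and not past the test after quantile normalisation. Cyclin E2 (Ccne2) differed by 1.05 ± 0.36 from the knockout spleens (adjusted p = 0.013). That call was lost with normexp, at 0.87, and without the lines of the slide that held lines only, at 0.74. Against the wild-type spleens it was 2.03 ± 0.34, and with normexp 0.75 and not past the test.

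The 4 genes of chromatin copying were higher in the lines as well. Chaf1a, the large subunit of the histone chaperone that follows the clamp, was at 1.56 to 3.74 in the lines (median 2.45), 0.16 to 1.22 in the knockout spleens (median 0.82) and -0.64 to 0.69 in the wild-type spleens (median 0.24). The groups did not overlap, and the differences were 1.80 ± 0.27 (adjusted p = 4.95e-06) and 2.58 ± 0.26. Uhrf1, which brings the maintenance methyltransferase to newly copied DNA, followed with 1.79 ± 0.26 and 2.53 ± 0.25. Dnmt1, that methyltransferase, was at 2.49 to 4.66 in the lines (median 3.79), 2.30 to 2.67 in the knockout spleens (median 2.37) and 2.03 to 2.49 in the wild-type spleens (median 2.32). The spleens were tightly grouped, with the lowest line among the knockout spleens, and the differences were 1.19 ± 0.24 (adjusted p = 0.000119) and 1.31 ± 0.23.

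Beyond the named set, 57 further genes of replication, checkpoint and nucleotide metabolism were measured. Of these, 49 were higher and 2 lower in the lines than in the knockout spleens, beside 41.5% and 28.9% of all genes. The median difference was 0.99, with 0.18 over all genes. Against the wild-type spleens 50 were higher and 2 lower, beside 40.2% and 31% of all genes. The median there was 1.17, with 0.13 over all genes. The largest increases over the knockout spleens were in Clspn, the checkpoint adaptor claspin (2.53 ± 0.29), Hells, a chromatin remodeller (2.44 ± 0.21), Top2a, the topoisomerase that untangles copied chromosomes (2.34 ± 0.28), and Shmt1, a folate enzyme (2.24 ± 0.18). Over the wild-type spleens they were in Clspn (3.34), Top2a (3.10), Ccna2, the S phase cyclin (2.72), and Hells (2.70). The genes lower in the lines were Rrm2b, the ribonucleotide reductase subunit made outside S phase, and Samhd1, which breaks down deoxynucleotides. Rrm2b was at -4.81 to -3.70 in the lines (median -4.21) and -4.04 to -3.18 in the knockout spleens (median -3.61), a difference of -0.62 ± 0.17 (adjusted p = 0.0027). Samhd1 was at 1.67 to 3.64 in the lines (median 2.48) and 2.89 to 3.17 in the knockout spleens (median 3.07), a difference of -0.51 ± 0.21 (adjusted p = 0.0383). The ranges overlapped for both, and with arrays centred on medians neither passed the test. Of 14 mitosis genes, 13 were higher in each comparison, beside 41.5% and 40.2% of all genes, with median differences of 2.08 and 2.79. The exception was Bub1, named here after its values were seen, at -0.29 and -0.25 (adjusted p = 0.393 and 0.449).

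The lines differed among themselves in the same direction across nearly the whole set. Line 2 was below the mean of the lines in 44 of 44 genes and the lowest line in 35. Line 9 was above it in 44 genes and the highest line in 36, and line 8 was above it in 44. The median deviation was -0.82 in line 2, 0.42 in line 8 and 0.79 in line 9, while over all tested genes it was -0.02, -0.07 and -0.01. Line 4 was below the mean in 39 of 44 genes. After centring on medians, quantile normalisation or normexp, line 2 was still the lowest in 33 to 34 genes and line 9 the highest in 33 to 37. The places of other lines moved with the scaling. Line 7 was below the mean in 34 genes, in 43 after centring on medians and in 24 after quantile normalisation, line 3 in 15 genes and in 41 with normexp, and line 1 in 29 genes and in 11 after centring on medians.

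**Figure D3:**
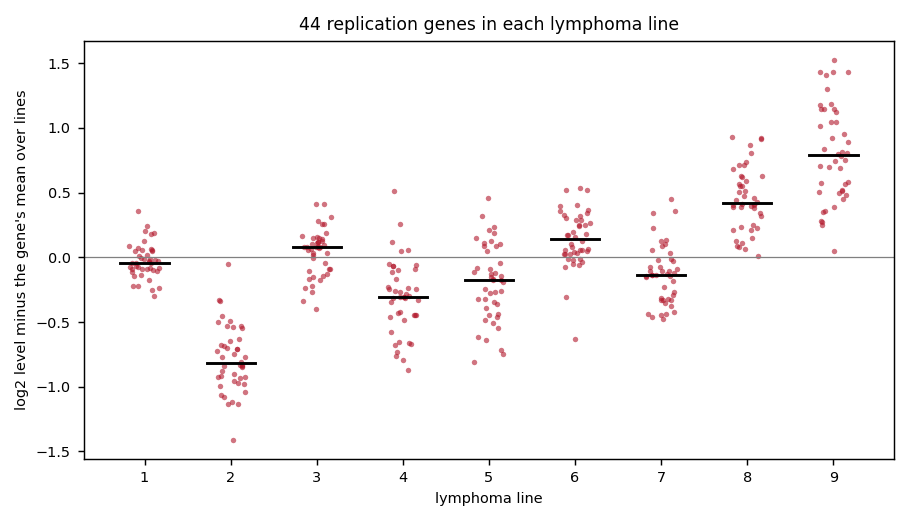
Log2 level of the 44 replication genes in each of the 9 lymphoma lines minus the gene's mean over the lines. Each point is a gene and each black bar the median over genes, which is -0.82 in line 2 and 0.79 in line 9.

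The mean level of the mitosis list, which shares no gene with the set, was lowest in line 2 at 2.40 and highest in lines 8 and 9 at 3.83 and 4.06. The mean level of the B cell markers was 4.51 in line 2, and 3.87 and 3.93 in lines 8 and 9. Spots well above background made up 62.3% in line 2, the most of all lines, and 54.9% in line 9, the least, and lines 7, 8 and 9 shared a slide with no spleen. The part of these in the result was not tested. Line 8 had been put on 2 arrays of that slide. They differed by a median of 0.23 in size over the 44 genes and 0.33 over all genes, against a median SD of 0.49 between the 9 lines over the 44 genes. The repeat was lower in 37 of 44 genes (84.1%) and in 53.7% of all genes.

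Between the lines the SD was largest for Cdc45 (0.81), Cdc6 (0.80) and Orc1 (0.79), and smallest for Pola1 (0.26), Mcm6 (0.31) and Dut (0.32). The median SD of the 44 genes was 0.49 between lines, 0.28 between knockout and 0.25 between wild-type spleens. Over all tested genes the same values were 0.44, 0.23 and 0.21. The SD between lines exceeded that in both spleen groups in 38 of 44 genes (86.4%), against 80.4% of all genes, so the wider spread was a property of most genes. Line 9 was above the highest knockout spleen in 44 of 44 genes and line 2 in 31, whereas over all genes the shares were 44.5% and 45.2%. Without line 2, 39 genes in place of 31 had no overlap with the knockout spleens (25.8% of all genes), and 43 in place of 40 with the wild-type spleens (25.1% of all genes). Leaving out any other line left both counts at 31 and 40. Without lines 7, 8 and 9 the median difference was 1.27 from the knockout and 1.91 from the wild-type spleens, with 42 and 43 genes higher.

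The second question was whether tumour-free spleens differed by Atm genotype. Because all knockout spleens were female, the fit with a term for sex sets them against the 3 female wild-type spleens. The set leaned towards higher levels in the knockout spleens, but only Pcna passed the test. Of 44 genes 1 was higher and 0 lower (limma, adjusted p under 0.05), where 1.65% of all genes were higher and 2.17% lower. At an unadjusted p under 0.05, 19 genes were higher and 1 was lower, beside 7.8% and 12.6% of all genes. The estimate was positive in 42 of 44 genes, against 41.4% of all genes, and the median difference was 0.44 against -0.05 over all genes.

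**Figure D4:**
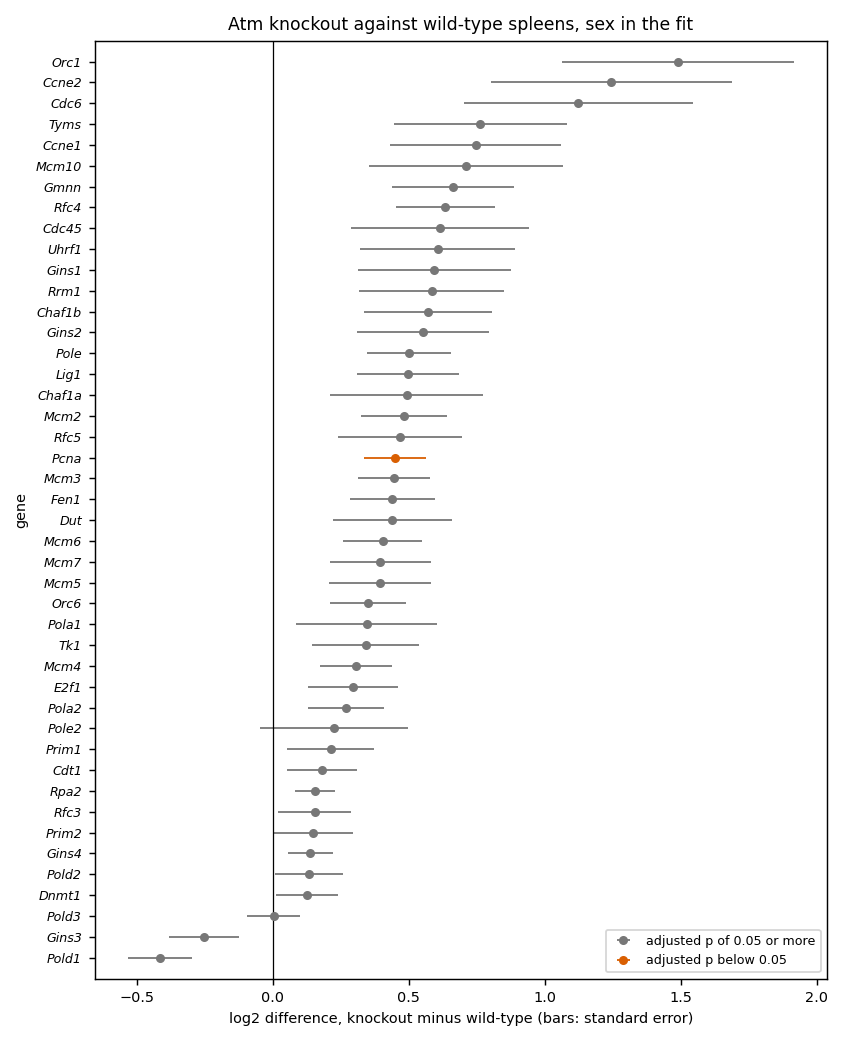
Log2 difference of each measured replication gene between the 6 Atm knockout spleens and the wild-type spleens, with sex in the fit and the standard error as bars. Pcna, in orange, is the gene with an adjusted p below 0.05, Orc1 has the largest estimate at 1.49, and Gins3 and Pold1 lie below 0.

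Pcna was at 5.20 to 5.63 in the knockout spleens (median 5.39) and at 4.86 to 5.02 in the 3 female wild-type spleens. These did not overlap, although a male wild-type spleen, number 2, reached 5.23. The difference was 0.45 ± 0.11 (adjusted p = 0.0486), and it failed the test in 18 of 23 alternatives, 11 of them with 1 sample left out, where the adjusted p over all 23 ran from 0.00767 to 0.397.

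The 3 largest estimates were in Orc1, Ccne2 and Cdc6, and none of them passed. Orc1 was at -3.01 to -1.52 in the knockout spleens and at -4.12 to -3.29 in the female wild-type spleens, a difference of 1.49 ± 0.43 (adjusted p = 0.0764). It passed without knockout spleen 6 (adjusted p = 0.0413) and without wild-type spleen 2 (adjusted p = 0.0332). Ccne2 differed by 1.24 ± 0.44 (adjusted p = 0.141) and Cdc6 by 1.12 ± 0.42 (adjusted p = 0.162). These estimates depended on the processing: with normexp they were 0.17 for Orc1, -0.09 for Ccne2 and 0.76 for Cdc6, and with the slide in the fit 0.996, 0.72 and 0.61, none of which passed. Pold1 went the other way, at 4.28 to 4.53 in the knockout and 4.60 to 4.94 in the female wild-type spleens, a difference of -0.41 ± 0.12 (adjusted p = 0.0764), which was -0.12 with normexp and -0.32 with the slide in the fit. With no term for sex Orc1 (1.59, adjusted p = 0.00865), Cdc6 (1.24, adjusted p = 0.0281) and Pold1 (-0.36, adjusted p = 0.0282) passed, and Pold1 also after quantile normalisation (adjusted p = 0.0482). Without wild-type spleen 2, Pold1 and Pole also passed, at -0.41 (adjusted p = 0.0359) and 0.50 (adjusted p = 0.0399). That spleen is male. With sex in the fit, leaving it out did not change the estimates of Orc1, Pold1 and Pole, only their p-values. Without knockout spleen 6, 4 genes were higher, namely Pcna, Orc1, Ccne2 and Rfc4.

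In 12 of 44 genes every knockout spleen was above every female wild-type spleen, which held for 4.17% of all genes. They were Mcm2, Mcm3, Mcm6, Orc1, Orc6, Gmnn, Gins2, Pole, Pcna, Rfc4, Fen1 and Tyms. Against all 7 wild-type spleens this held for Mcm3 alone (2.23% of all genes), at 1.82 to 2.25 in the knockout (median 1.99) and 1.30 to 1.77 in the wild-type spleens (median 1.64). Without the term for sex, 20 genes were higher and 1, Pold1, lower, beside 5.35% and 5.21% of all genes. With the female spleens alone, 0 were higher, beside 1.19% of all genes, although the 44 estimates are by construction the same. With the slide in the fit the median difference was 0.25. Among the 57 further replication genes 0 were higher and 0 lower, with 13 and 1 at an unadjusted p under 0.05, for which the same shares of 7.8% and 12.6% of all genes apply.

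By sex, 0 of 44 genes differed between the male and female wild-type spleens (limma, adjusted p under 0.05), beside 0.0509% of all genes higher and 0.633% lower in males. At an unadjusted p under 0.05, 0 were higher and 3 lower in males, beside 2.42% and 8.08% of all genes. The estimate was lower in males in 34 of 44 genes, as it was in 8636 of 13743 tested genes.

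The spleens also differed within their genotype. Wild-type spleen 2 was the highest wild-type spleen in 31 of 44 genes. Knockout spleen 5 was the highest knockout spleen in 24 genes and number 2 in 14, while number 6 was the lowest in 23 and number 4 in 14. Averaged over the 43 genes measured on all arrays, the level was 1.44 to 2.06 in the knockout spleens (median 1.79) and 1.03 to 1.68 in the wild-type spleens (median 1.24), so the groups overlapped. Wild-type spleen 2 is the sample that reached into the knockout range.

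**Figure D5:**
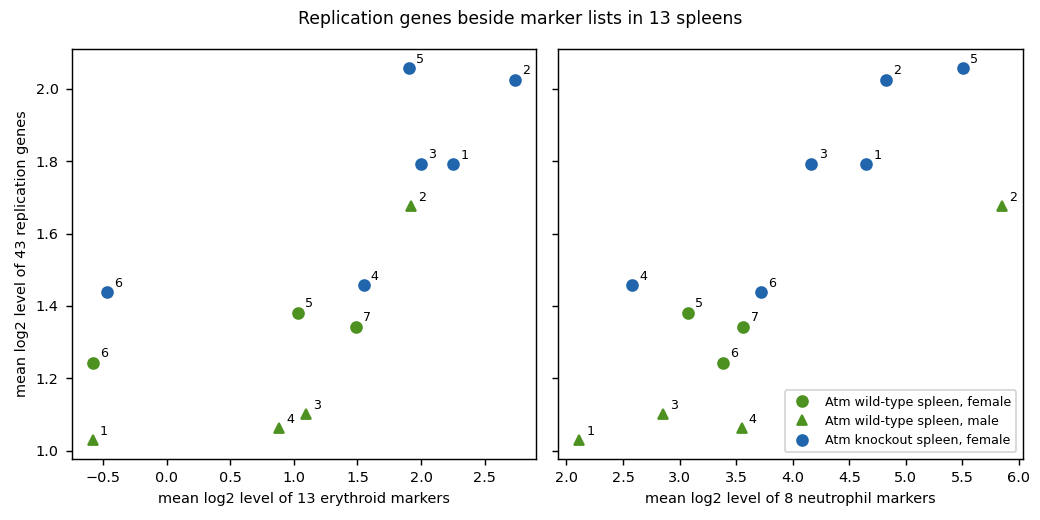
Mean log2 level of 43 replication genes in the 13 spleens (vertical axis) beside the mean log2 level of 13 erythroid markers (left) and 8 neutrophil markers (right). Points are spleens with their number, blue for knockout and green for wild-type, circles for females and triangles for males. Wild-type spleen 2, at 1.68, has the highest neutrophil mean of all, at 5.85.

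Markers of red cell and myeloid precursors also varied between the spleens. The erythroid list, with 13 of 14 genes measured, was at a mean of -0.48 to 2.74 in the knockout and -0.58 to 1.92 in the wild-type spleens. All 13 of its genes had a positive genotype estimate, with a median of 1.11, and 0 passed the test (2 at an unadjusted p under 0.05). The neutrophil list, with 8 of 8 measured, was at 2.58 to 5.50 and 2.11 to 5.85, with 8 positive estimates and 0 called (0 at an unadjusted p under 0.05). Spleens 2 and 5 of the knockouts, the highest for the replication genes, had neutrophil means of 4.82 and 5.50, and wild-type spleen 2 had 5.85. The erythroid means of these spleens were 2.74, 1.90 and 1.92. Knockout spleens 4 and 6, the lowest of the knockouts, had erythroid means of 1.55 and -0.48 and neutrophil means of 2.58 and 3.72. Wild-type spleen 1 was the lowest of all spleens for both lists, with a replication mean of 1.03 and an erythroid mean of -0.58. Wild-type spleen 6, with a replication mean of 1.24, also had an erythroid mean of -0.58. Knockout spleens 1 and 3 had erythroid means of 2.25 and 2, each with a replication mean of 1.79. The erythroid and replication means thus ranked the spleens similarly but not identically, which was not tested. All erythroid and neutrophil markers measured were well above background in every spleen. Of 6 NK cell markers, 4 were lower and 0 higher in the knockout spleens (limma, adjusted p under 0.05). The shares over all genes were 2.17% and 1.65%, and the median difference of the NK cell list was -0.74. The part of these cell types in the genotype difference was not tested.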

How the data were processed

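The 46 genes, the other lists and the tests were chosen with earlier results of these data known. The intensity of each spot was read from the deposited scanner files. Per the file headers, they were made with Agilent Feature Extraction 10.7.1.1. Deposited log2 values of these arrays, which the authors had scaled and centred per probe, served as an alternative. Without 1639 control spots, each array kept 43379, of which 1556 over all arrays were dropped as uneven or as outliers. Signals, averaged per probe, were divided by the 75th percentile of their array before log2 was taken, and the 2 arrays of line 8 (1 titled as a repeat) were averaged, which gave 22 samples of 23 arrays. Of 41174 probes, 26690 took a symbol from RefSeq accessions (18217 genes). A probe was tested if well above background in at least 6 of 22 samples, and the tested probe with the highest mean stood for its gene (13743 genes).

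R 4.3.3 with data.table (version 1.17.8) and limma 3.58.1 was used for all fits, and p were adjusted by Benjamini-Hochberg over all tested genes at 0.05. Lines and spleens were fitted as 3 groups, and the genotype comparison used the 13 spleens with a term for sex. ± is the standard error of the fit. The fits were tested on simulated data with known shifts. Between genotypes, shifts of 0.5 log2 units were recovered in 22% of the shifted genes and shifts of 1 in 76%. Between lines and knockout spleens, shifts of 0.5 were recovered in 33%. Smaller genotype differences could therefore often be missed. Values of all groups are given for the genes with the largest and smallest difference in each role, those with probes that disagree, those called by genotype and the 3 with the largest and smallest SD between lines. Of the further replication genes, the 4 largest increases and up to 4 decreases are named. Alternatives were other scalings, normexp, filters, probe means, the value table, slide terms, the sex term and leaving out samples. Normexp (offset 50) was run on the median spot signal, because the mean signal column it was planned for is not in these files. The number of arrays limits the precision.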

Additional observations from a re-analysis of the deposited data

Results flagged for a closer look

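In 132 tests of single genes within a group, 7 held a sample set apart from the rest of its group by more than Dixon's 95% limit, and chance alone marks about 1 in 20. In 5 of the 7 the sample was lymphoma line 2, which was the lowest line. Its level was -0.73 for Gins3 (next line 0.16), 4.29 for Pold1 (next 5.02), 2.30 for Pold3 (next 2.91), 0.47 for Pole2 (next 1.43) and 3.36 for Rfc5 (next 4.03). For Gins3 and Pold1 line 2 lay within the range of the spleens, and for Pole2, Pold3 and Rfc5 it was still above every spleen. The other two cases were in wild-type spleen 2, a male, as the highest wild-type spleen, with 2.39 for Rfc4 (next 2.02) and -2.00 for Ccne2 (next -3.12).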

How the results depend on the processing

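The count of higher genes in the lines stayed at 41 to 44 of 44 under every alternative run. Median differences of 1.51 and 2.05 became 2.10 and 2.63 with array medians, and 0.49 and 0.75 within the slide of line 2. Cdt1 made 1 gene lower than the knockout spleens with quantile normalisation, with the slide in the fit and without lines 7 to 9 (the last chosen after seeing the data), and 1 lower than the wild-type spleens with quantile normalisation. Further replication genes lower than in the knockout spleens went from 2 to 0 with array medians and normexp and to 1 without lines 7 to 9, and against the wild-type spleens from 2 to 0 and to 1 with normexp. By genotype, the 1 higher gene became 0 with array medians, quantile normalisation, normexp, no filter, the value table, the slide term and female spleens alone, and 20 without the sex term. There 1 gene was lower, as with quantile normalisation, and 10 further replication genes were higher. The causes were not tested.

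With 1 sample left out, the lines had 43 to 43 higher genes in each comparison, 0 to 1 lower than the knockout and 0 to 0 lower than the wild-type spleens, with medians of 1.40 to 1.61 and 1.98 to 2.14. Further replication genes numbered 48 to 50 and 47 to 50 higher, and 1 to 3 and 2 to 3 lower. By genotype, 0 to 4 genes were higher and 0 to 1 lower, the median was 0.36 to 0.49, and 0 to 1 further genes were higher and 0 to 0 lower. The median SD between lines was 0.40 to 0.52, and it exceeded both spleen groups in 29 to 39 genes, 29 without line 9. No paired analysis was possible because the labels give no replicate numbers that groups share.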

Other observations

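Other promoter motifs set the replication genes less apart from other genes by share than the E2F letters. CCAAT, searched on both strands of the same windows, lay in 22 of 38 genes (57.9%) against 41.1% of all genes, and TTTGAA, a cell cycle element of mitosis genes, in 6 of 38 (15.8%) against 20.2%. These shares are descriptions and were not tested.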
